A study of Mus musculus with 8 samples.

Results

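S100 proteins are small calcium-binding proteins that act inside cells on cytoskeletal and membrane proteins, and some of them are also released and act on receptors of other cells. In blood formation they are best known from the granulocyte line, where S100a8 and S100a9 pair to form calprotectin, a complex stored in the cytosol of neutrophils that binds metal ions and calcium. The other members described here are found more widely and bind annexins, myosins and other partners.

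The genes described are the 7 S100a genes S100a4, S100a6, S100a8, S100a9, S100a10, S100a11 and S100a13. They were chosen by name out of 32285 genes in the count tables, with earlier results of these data known. Single-cell RNA-seq was done on the lineage-negative, c-Kit+ cells of the bone marrow, a gate that holds stem and progenitor cells, of 8 wild-type mice with 1 library per mouse. There was 1 male and 1 female in each of 4 age groups, young (14 weeks), middle-aged (50 weeks), old (the male at 78 and the female at 79 weeks) and very old (95 weeks). No treatment or transgene was given for any group, and the strain was not given in the labels. The comparison of age asked how the marrow progenitors of older mice differ from those of young mice, and "older" below means the 4 old and very old mice together.

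The libraries held 83062003 to 150135029 unique molecular identifiers (UMIs, the counted molecules) with a median of 8505 to 14951 UMIs per cell, and 59136 cells with at least 200 detected genes were kept. Any pair of libraries shared at most 27 cell barcodes. The libraries of both very old mice were named in another series (SL20) than the other 6 (SL19), so that very old age and the library series cannot be told apart. Cells were grouped without any S100 gene among the variable genes, and groups were named only from lists of marker genes, giving 4457 HSC-like cells, 8337 multipotent progenitor (MPP)-like, 4574 granulocyte progenitor-like, 6127 monocyte progenitor-like, 646 dendritic progenitor-like, 2108 basophil or mast cell-like, 4236 megakaryocyte-like and 16359 erythroid-like cells. Shallow clusters made up part of some classes. A cluster of 3921 MPP-like cells had a median of 2569 UMIs, and clusters of 3909 and 2421 erythroid-like cells had medians of 2998 and 706. A cluster of 1247 granulocyte progenitor-like cells had a median of 3476. The HSC-like cells were a single cluster with 11 HSC markers among its 50 leading genes, among them Procr, Hlf and Mecom. The dendritic progenitor-like cells were a single cluster with 4 listed markers among its 50 leading genes, Cd74, H2-Aa, H2-Ab1 and Irf8. H2-Eb1 and Ciita were also among its 10 leading genes. Siglech, Bst2, Tcf4, Ccr9 and Flt3 of the list were not among the 50, and how mature these cells are was not tested. The granulocyte progenitor-like class joined 4526 cells of early granulocyte-monocyte clusters (3279 and 1247 cells) with a cluster of 48 cells. The cluster of 3279 cells had Elane, Ms4a3 and Prss57 of the early granulocyte-monocyte list among its 10 leading genes, and that of 1247 cells had Ctsg and Mpo. The 48 cells were led by Ngp, Camp and Ltf, genes of later granule proteins, and are called the neutrophil cluster. Retnlg, Wfdc21 and Mmp9 of the mature neutrophil list were also among their 10 leading genes. Levels are given as CPM, the UMIs of a gene summed over the cells of a class and mouse, scaled to the total UMIs of the same cells in the usual unit of that name. They count molecules at their 3′ ends, so that they are compared between mice and classes for a gene and not between genes. Log2 fold changes were fitted with a further scaling of the libraries (TMM) and with sex as a term. They can therefore differ from the ratio of the levels given.

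All 7 genes lie on mouse chromosome 3 in the GRCm38 (mm10) build with GENCODE vM21 annotation. S100a13, S100a4, S100a6 and S100a8 on the plus strand and S100a9 on the minus strand fall within 181 kb, and S100a11 and S100a10 lie together on the plus strand 2825 kb further along. S100a4 (chr3:90603771-90606045) ends 6.84 kb before S100a6 (chr3:90612882-90624181), and S100a8 (chr3:90668978-90670035) and S100a9 (chr3:90692632-90695721) are 22.6 kb apart. The other members are S100a13 (chr3:90514435-90524581), S100a11 (chr3:93520488-93526287) and S100a10 (chr3:93555080-93564643). In that annotation Gm42674 overlaps S100a4 on the same strand, and it has no row of its own in the count tables, while no other member overlapped a gene.

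The promoters of both pairs of neighbours whose levels ran together over the cell classes are shown to set their sequences side by side. They are 90 bases before and 10 bases from the RefSeq start (GRCm38.p6), read 5′ to 3′ on the strand of the gene, with the TATAA motif in capitals. S100a8 and S100a9, with their regions chr3:90668981-90669080 on the plus strand and chr3:90695712-90695811 on the minus strand, are the granulocyte pair, and S100a4 and S100a6, with chr3:90603680-90603779 and chr3:90612804-90612903 on the plus strand, are the pair that was high in dendritic-like and HSC-like cells.
S100a8: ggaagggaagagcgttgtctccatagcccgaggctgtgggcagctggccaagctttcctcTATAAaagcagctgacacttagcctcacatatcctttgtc
S100a9: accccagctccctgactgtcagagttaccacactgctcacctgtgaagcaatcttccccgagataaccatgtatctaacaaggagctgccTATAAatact
S100a4: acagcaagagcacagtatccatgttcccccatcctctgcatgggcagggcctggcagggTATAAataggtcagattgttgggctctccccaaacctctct
S100a6: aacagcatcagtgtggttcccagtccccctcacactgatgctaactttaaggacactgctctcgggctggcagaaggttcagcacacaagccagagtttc

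TATAA was searched on both strands of the 300-base windows that the RefSeq table gives, 250 bases before to 50 after the start, and 24.9% of the 32851 windows in that table held it. It stood on the gene's strand 30 bases before the start of S100a8, 31 bases before the start of S100a4 and at the start itself in S100a9. GCAAT, a part of the site of C/EBP factors held by 26.4% of windows, was found 2 times on the other strand of S100a8 and 43 bases before the start of S100a9. GAGGAA, a core of the factor PU.1 held by 28.3% of windows, was found on the other strand of S100a8 and S100a4 and 153 bases before the start of S100a11. None of these 3 motifs was found in the windows of S100a6 and S100a13. The table had windows for 6 of the 7 members, and S100a10 was not among them.

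Across the named cell classes the 7 genes fell into different patterns. S100a8 and S100a9 were found in granulocyte cells and little elsewhere, S100a4 and S100a6 were highest in dendritic-like and then in HSC-like cells, and S100a10, S100a11 and S100a13 were found in every class. In granulocyte progenitor-like cells S100a8 was at 2319 ± 1775 CPM (SD, n = 8 mice) and S100a9 at 1938 ± 1804, and no other tested class had a mean above 11.7 for S100a8 or 9.51 for S100a9. The class held 95.97% of all S100a8 UMIs and 96.8% of all S100a9 UMIs, from 7.73% of cells. The plot of levels by class shows every mouse.

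**Figure D1:**
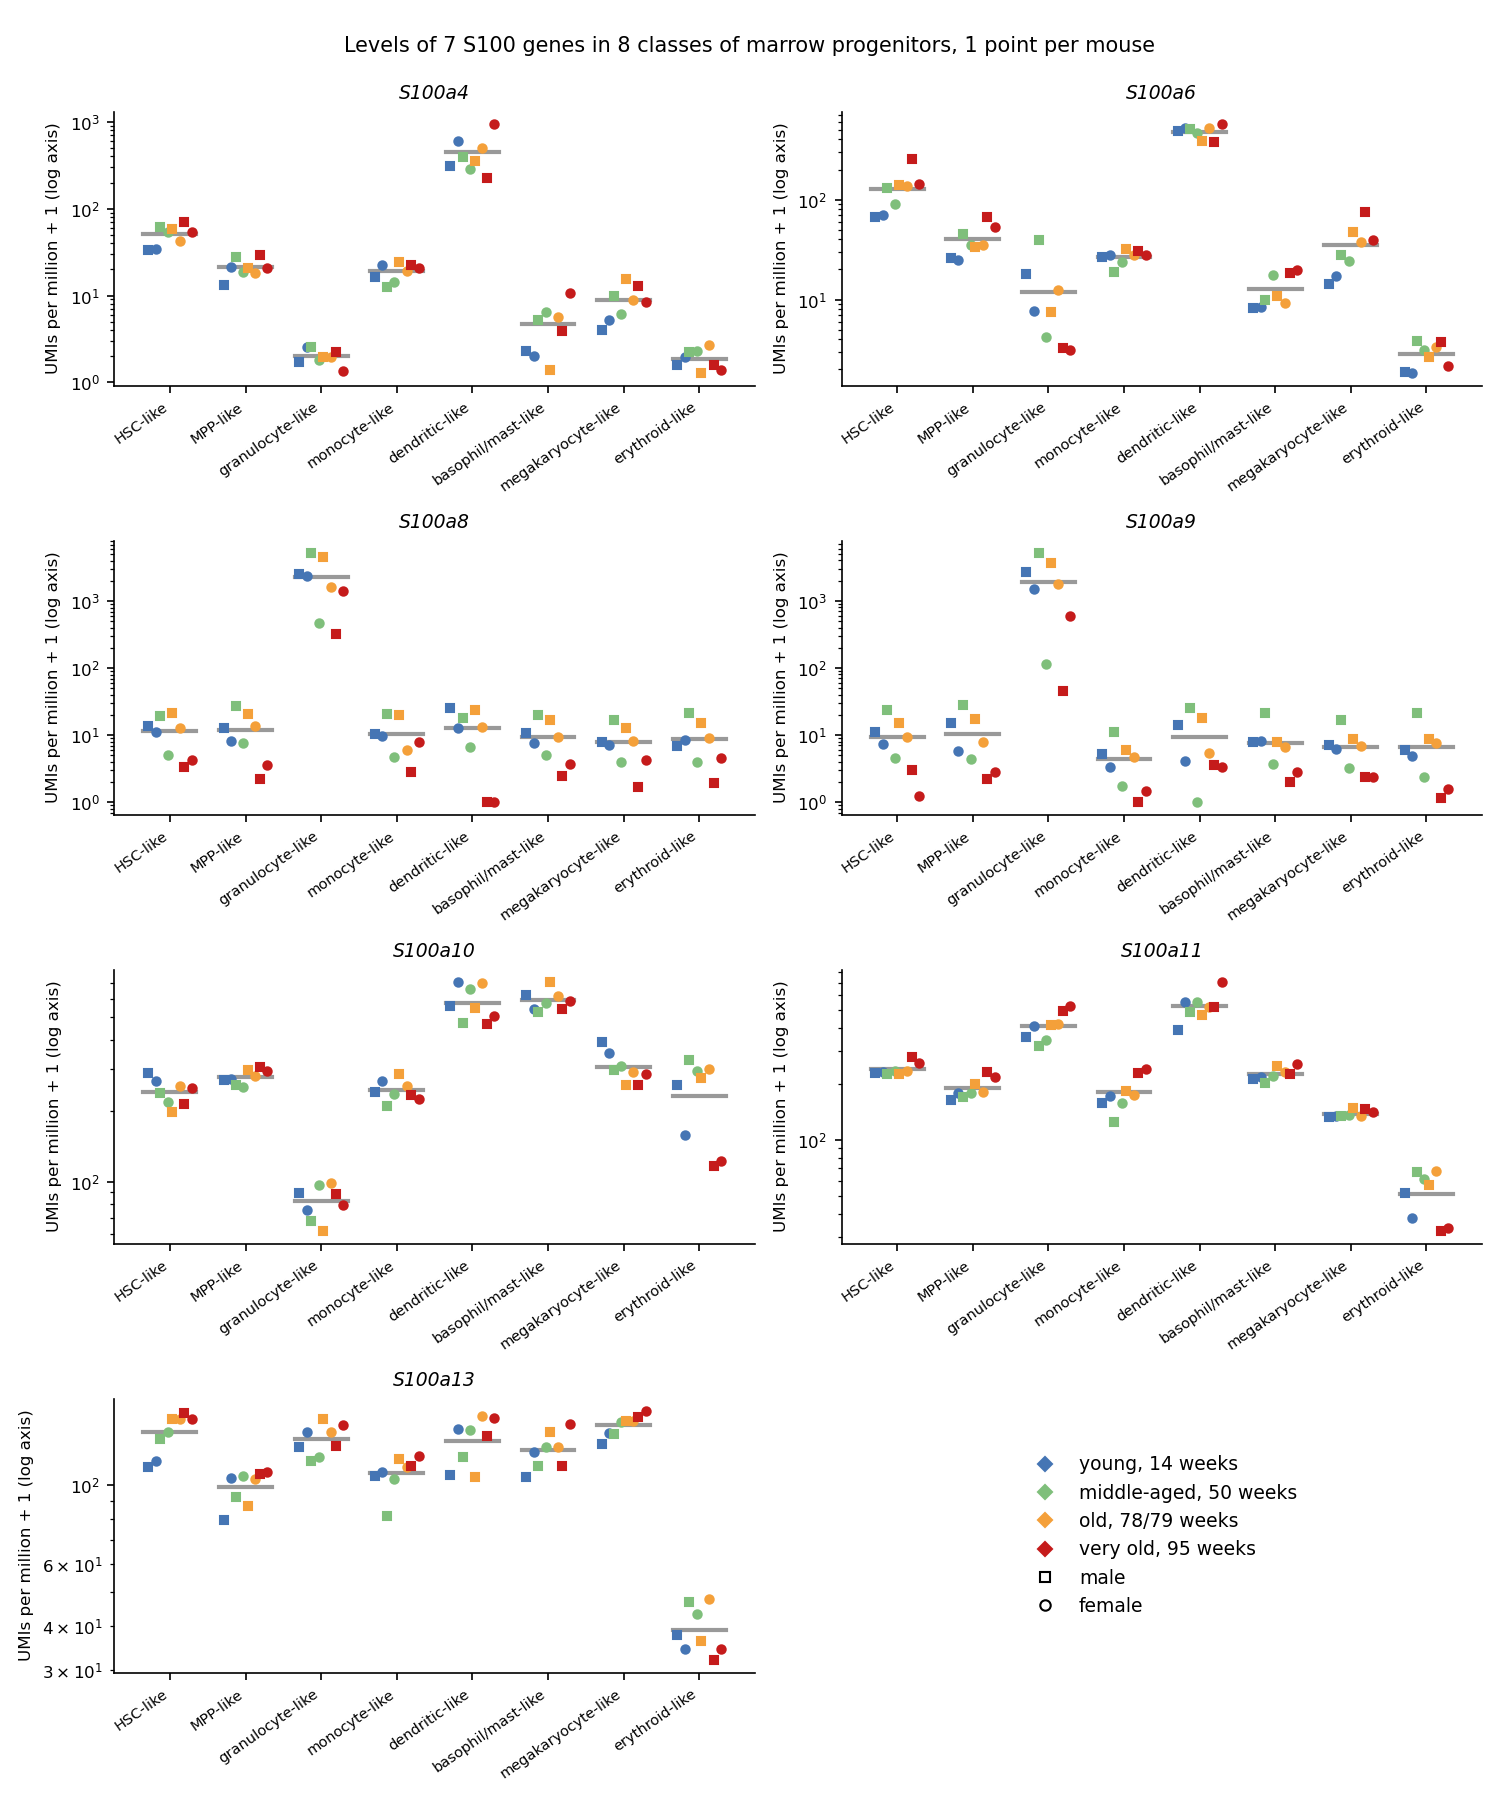
Level of each of the 7 S100 genes in 8 classes of cells, as CPM plus 1 on a log axis, with 1 point per mouse (colour for age group, square for male and circle for female) and a grey bar at the mean of 8 mice. S100a8 and S100a9 stand at means of 2319 and 1938 in granulocyte-like cells and at means of 11.7 or below elsewhere, S100a4 and S100a6 are highest in dendritic-like cells, and S100a10, S100a11 and S100a13 are spread over all classes.

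S100a6, or calcyclin, which binds annexins and the ubiquitin-ligase partner Cacybp, was at 478 ± 67.8 CPM in dendritic-like cells (SD, n = 8). HSC-like cells came next with 128 ± 58.9, and the ranges of both classes did not overlap. MPP-like (39.0 ± 14.4), megakaryocyte-like (34.3 ± 19.5) and monocyte-like cells (25.9 ± 4.15) followed with overlapping ranges, and erythroid-like cells were lowest at 1.82 ± 0.807. S100a4, a partner of non-muscle myosin, had the same first places with 453 ± 234 in dendritic-like and 50.1 ± 13.1 in HSC-like cells. Its level in dendritic-like cells varied widely between mice, from 222 to 947. Outside the named classes, an unnamed cluster of 98 cells led by Trbc1, Ccl5 and Tcf7 was at 312 CPM for S100a4 over all mice. The granulocyte and erythroid-like classes were at 1.01 and 0.879 for S100a4, with overlapping ranges.

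Among the named classes S100a10, the partner of annexin A2 known as p11, was highest in basophil or mast-like (588 ± 58.4) and dendritic-like cells (576 ± 97.7), which overlapped. It was lowest in granulocyte progenitor-like cells (81.4 ± 13.5). An unnamed cluster of 3729 cells was higher still, at 891 CPM for S100a10 over all mice, and unnamed cells held 26.5% of all S100a10 UMIs. S100a11, a partner of annexin A1, was highest in dendritic-like (523 ± 90.1) and granulocyte progenitor-like cells (409 ± 71.6), again overlapping, and lowest in erythroid-like cells (50.1 ± 14.7). S100a13, which takes part in the release of proteins that lack a signal peptide, varied less between classes. Its class means ran from 147 ± 10.3 in megakaryocyte-like to 97.8 ± 10.9 in MPP-like cells, each class overlapping with its neighbour, and only erythroid-like cells stood below at 38.0 ± 6.01.

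The genes most alike to each member were found by Pearson's correlation of log2(level + 1) over 64 class-by-mouse sums, 8 classes of the same 8 libraries, among 9556 genes with a mean of at least 10 CPM in at least 1 class. The 3 genes most alike to S100a4 were Fcgrt (r = 0.95), which codes for the neonatal Fc receptor, Phf11b (r = 0.94) and S100a6 (r = 0.94). Those most alike to S100a6 were S100a4, Fcgrt (r = 0.93) and Zfp36 (r = 0.92). For S100a8 the 3 genes were Wfdc21 (r = 0.96), S100a9 (r = 0.96) and Lrg1 (r = 0.92), and for S100a9 they were Camp (r = 0.96), S100a8 and Ngp (r = 0.93). S100a11 was most like Alox5ap (r = 0.94), Napsa and Anxa1, its annexin partner (r = 0.93 each). S100a10 was most like Esyt1 (r = 0.93), Ccdc88a and Rnase6 (r = 0.86 each), and S100a13 was most like Tnfrsf13b (r = 0.89), Fxyd5 and Cited2 (r = 0.88 each).

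In HSC-like cells S100a6 was higher in older mice. The young male and female were at 65.8 and 68.9 CPM, the middle-aged male and female at 131 and 89.7, the old pair at 137 and 135, and the very old pair at 251 and 142. Every older mouse and both middle-aged mice were thus above both young mice, and the very old male was set apart from all others. The mean of the 4 older mice was 166 ± 56.4 against 67.4 ± 2.23 in the 2 young mice, and the log2 fold change was 1.38 (SE 0.17, adjusted p = 0.00047, edgeR quasi-likelihood test with Benjamini-Hochberg adjustment over all 11585 genes tested). The labels name 1 mouse per library, and all p-values rest on the spread between these mice, with 2 in the young group. Old mice alone differed from young by 1.10 (adjusted p = 0.00509) and very old mice alone by 1.67 (adjusted p = 0.000393), while very old against old gave 0.57 (adjusted p = 0.412). Middle-aged against young gave 0.76 (adjusted p = 0.0868).

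**Figure D2:**
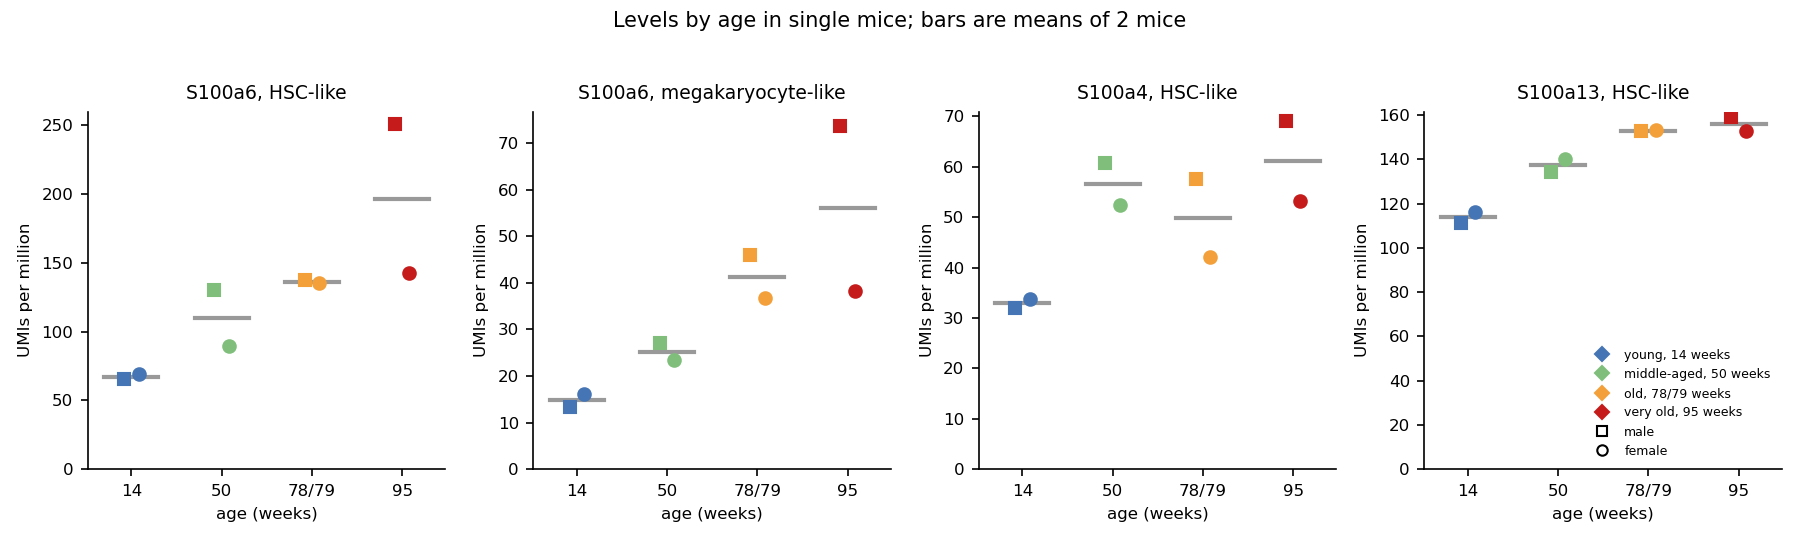
Level of S100a6 in HSC-like and megakaryocyte-like cells, and of S100a4 and S100a13 in HSC-like cells, in CPM from 0, against age in weeks, with 1 point per mouse and grey bars at the mean of 2 mice. S100a6 of HSC-like cells runs from 65.8 and 68.9 in the young mice to 135 to 251 in the older mice, and in each panel all older mice lie above both young mice.

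S100a4 and S100a13 also rose in HSC-like cells. S100a4 was at 32.1 and 33.7 CPM in the young mice, at 60.7 and 52.4 in the middle-aged, at 57.6 and 42.0 in the old and at 69.1 and 53.2 in the very old mice (male and female in turn), a log2 fold change of older against young of 0.86 (SE 0.14, adjusted p = 0.00256). Both middle-aged mice already lay above both young mice, with a log2 fold change of 0.85 (adjusted p = 0.017). S100a13 was at 111 and 116 in the young mice and at 153 to 159 in the older mice, which did not overlap with them, with a log2 fold change of 0.57 (SE 0.09, adjusted p = 0.00334). The spread of S100a13 among the 4 older mice was small, with an SD of 3.20 around a mean of 154.

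The other members of HSC-like cells did not pass the test. S100a11 was at 228 and 231 CPM in the young and at 224 to 277 in the older mice (log2 fold change 0.23, SE 0.09, adjusted p = 0.136). S100a10 was at 289 and 267 in the young and at 196 to 254 in the older mice, so that the groups did not overlap, with a log2 fold change of -0.17 (SE 0.11, adjusted p = 0.413). S100a8 (log2 fold change -0.69, SE 0.38) and S100a9 (-1.09, SE 0.45) had adjusted p of 0.317 and 0.167, and their low counts in these cells are set beside those of other lineages below.

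In all, 3 of 7 members were called higher in older HSC-like cells and 0 lower, against 8.52% of all genes tested called in either direction and 6.02% called higher. The median log2 fold change of the members was 0.23, and that of all genes tested was -0.01. Old against young called 3 members against 6.64% of genes, very old against young 6 members (S100a8 and S100a9 lower, S100a4, S100a6, S100a11 and S100a13 higher) against 5.78%, middle-aged against young only S100a4 against 1.36%, and very old against old only S100a9 (lower) against 0.147%. These comparisons share mice, and the members were chosen with earlier results of these data known. For older against young 5 members had an unadjusted p below 0.05, and DESeq2 called 3. Without the young male, which leaves 1 young mouse, S100a6 gave a log2 fold change of 1.11 and missed the threshold, as did the other members. The lone young mouse is assumed there to vary like the other groups, and the share of all genes called was not determined.

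**Figure D3:**
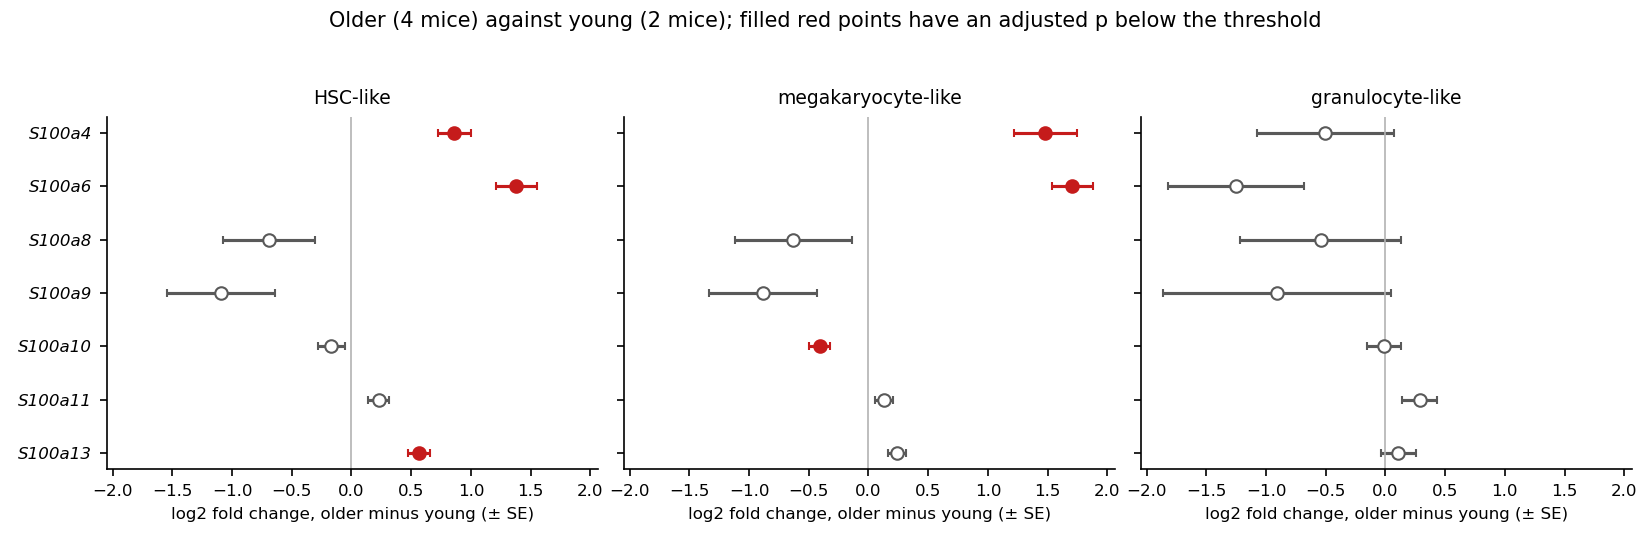
Log2 fold change of older (4 mice) minus young (2 mice) for the 7 members in HSC-like, megakaryocyte-like and granulocyte-like cells, with bars of 1 SE from edgeR and filled red points where the adjusted p was below the threshold. S100a6 stands at 1.38 and 1.71 in HSC-like and megakaryocyte-like cells, and no point is filled in granulocyte-like cells.

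Markers of the HSC-like cells moved together with S100a6. Of the 19 genes of the HSC marker list 14 rose and 0 fell, with a summed level of 1752 to 2017 CPM in young and 2348 to 3716 in older mice. Of the 10 MPP markers 4 fell (Cd34, Cd53, Flt3 and Satb1) and 0 rose, with 1383 to 1698 in young and 964 to 1139 in older mice, and no gene of either list was at 0. Of the megakaryocyte list Cd9, Vwf and Rab27b rose and 0 genes fell, with a summed level of 258 to 314 in young and 369 to 540 in older mice, and Gp6 of the 12 listed genes was at 0. The dendritic list summed to 669 to 911 in young and 805 to 878 in older mice, overlapping ranges, with H2-Ab1, H2-Aa and Cd74 called higher, Flt3 called lower and no gene at 0. The T or NK cell list summed to 1.98 to 2.43 in young and 15.4 to 32.7 in older mice, with Cd3g, Cd8a, Ncr1 and Il2rb of its 9 genes at 0. Only 1 of these 9 genes was tested, Klrb1c, which was called higher with a log2 fold change of 3.68.

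The macrophage, monocyte, lymphoid and mature neutrophil lists had lower sums in older than in young HSC-like cells, with ranges that did not overlap. The macrophage list summed to 31.9 to 33.4 CPM in young and 7.72 to 17.8 in older mice, with C1qb and C1qc called lower of 5 tested. The monocyte list summed to 73.8 to 132 in young and 26.1 to 66.5 in older mice, with Ctss called lower of 6 tested, and no gene of either list was at 0. The lymphoid list summed to 280 to 292 in young and 229.5 to 244 in older mice, with Dntt called lower of 4 tested and Pax5 at 0. The mature neutrophil list summed to 46.5 to 61.8 in young and 33.9 to 42.8 in older mice, with 0 of 2 tested genes called and Stfa2l1 at 0. Sums of the early granulocyte-monocyte list overlapped, at 1406 to 1894 in young and 1254 to 1775 in older mice, with Prss57, Mpo and Ctsg called lower and Prtn3 called higher. The neutrophil progenitor list summed to 110 to 169 in young and 156 to 263 in older mice, also overlapping, with Gstm1 called higher and Mmp8 at 0. Of lists with overlapping sums, Kdr was also called higher, and Rhd and Sdc1 were called lower.

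When HSC-like cells were matched between mice on a score of HSC minus MPP markers, a comparison chosen after seeing the data that kept 193 cells per mouse, S100a6 was still called higher with a log2 fold change of 0.92 (adjusted p = 0.00313). S100a4 then gave 0.52 (adjusted p = 0.257) and S100a13 gave 0.33 (adjusted p = 0.267), so that 1 of 7 members was called. The share of all genes called in the matched cells was not determined. With fewer cells per mouse, the lost calls of S100a4 and S100a13 therefore cannot be assigned to the matching. The part of the other marker lists in these results was not tested.

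The rise of S100a6 was seen in the share of HSC-like cells that held its UMIs. With every cell thinned to 4000 UMIs, which left out 431 shallower HSC-like cells, the expected share with an S100a6 UMI was 23.0% ± 1.26 in young (SD, n = 2), 32.2% ± 6.97 in middle-aged (n = 2) and 40.7% ± 6.63 in older mice (n = 4), and unthinned it ran from 36.0% to 39.1% in young and from 49.8% to 67.3% in older mice. Erythroid-like cells, which hold little S100a6, had a lower share of 0.367% to 1.02% at the same depth. The part of free RNA in the HSC-like share was not tested. In a single thinning, cells with 3 or more S100a6 UMIs made up 2.03% and 1.13% of the young male's and female's cells and 4.18% to 10.7% of those of the older mice. Among the cells with any S100a6 UMI, the mean was 1.32 and 1.23 UMIs in the young and 1.48 to 1.89 in the older mice. Both the share of cells and the number of molecules per positive cell were thus higher in all 4 older mice than in both young mice. The mean over all thinned cells was 0.324 and 0.282 UMIs in the young and 0.55 to 1.01 in the older mice. A higher mean alone raises both measures, so that they are not separate results.

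**Figure D4:**
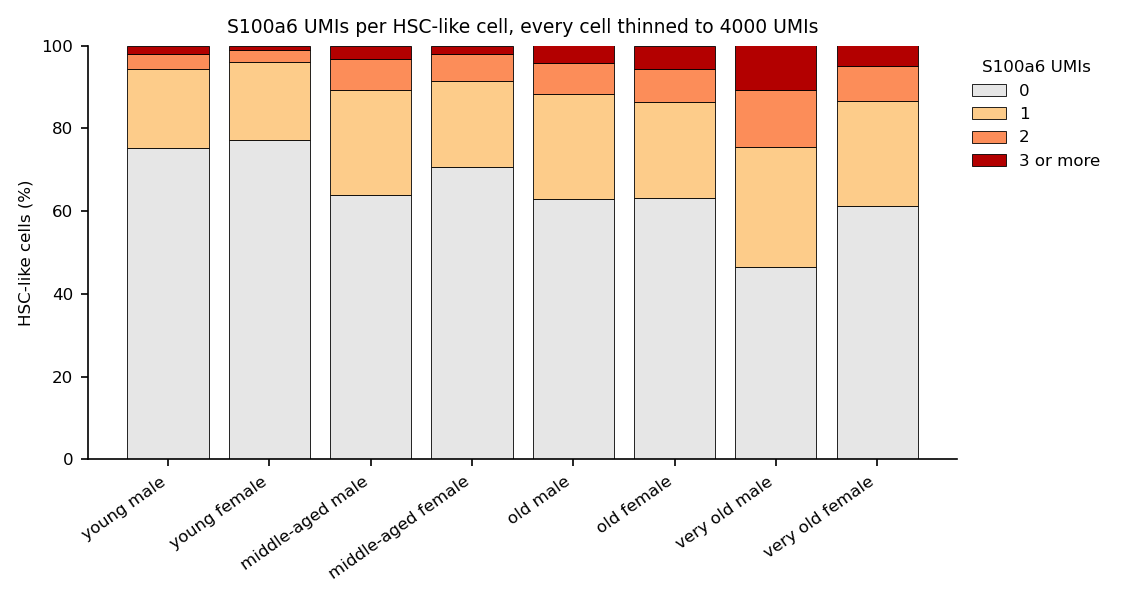
Share of HSC-like cells in percent with 0, 1, 2 or 3 and more S100a6 UMIs after thinning each cell to 4000 UMIs, as stacked bars from 0 to 100 with 1 bar per mouse. Cells with 0 UMIs make up 75.3% and 77.2% in the young mice and 46.5% to 63.1% in the older mice.

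S100a6 was also compared between HSC-like cells with and without a UMI of Vwf, the clotting factor gene of platelet-primed stem cells, in the thinned cells. With Vwf the S100a6 level was 192, 213, 295 and 216 CPM in the old male, old female, very old male and very old female, and without Vwf it was 125, 138, 243 and 142. In the young male and female, with only 7 and 8 such cells, it was 107 and 188 with Vwf, so that the young female lay near the old male, and in the middle-aged male and female it was 219 and 158. The level was higher in the Vwf cells of all 8 mice. The cells without Vwf were at 80.4 and 67.7 in the young mice, below the 4 older mice. Among HSC-like cells with an S100a6 UMI, S100a4 was found in 20.5%, 25.7% and 17.5% of those of the very old male, old male and old female, against 17.5%, 15.4% and 13.5% of the cells without S100a6. The share was higher in the cells with S100a6 in 6 of 8 mice. In the young female the order was turned, with 7.41% against 12.8%, and in the middle-aged female both shares were near each other, at 15.1% and 15.2%.

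Variability between cells, which is the property the study asks about, was measured for each gene as the variance of log-normalized levels between HSC-like cells of a mouse relative to the trend of variance with mean. For S100a6 the log2 difference of older minus young was 0.15 (SE 0.04, adjusted p = 0.302, limma), for S100a13 0.07 (SE 0.04), for S100a4 0.03 (SE 0.03), for S100a11 0.01 (SE 0.04) and for S100a10 -0.04 (SE 0.03). Of these 5 members detected in at least 10% of cells 0 were called and 1, S100a6, had an unadjusted p below 0.05, against 0.691% of 4634 genes called. S100a8 and S100a9 were below the detection limit of this comparison.

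Among the partners of S100 proteins, a list of 22 annexins, receptors and cytoskeletal genes, 19 were tested in HSC-like cells, of which 1 rose and 4 fell, with a median log2 fold change of -0.17. Anxa5, an annexin of cell membranes, rose by 0.51 (SE 0.10, adjusted p = 0.00747). Lgals1, which codes for galectin-1, fell by 1.44 (SE 0.18, adjusted p = 0.00047), Anxa6 fell by 1.06 (adjusted p = 0.00536), Anxa2, the partner of S100a10, fell by 0.69 (adjusted p = 0.0217) and Vim, which codes for vimentin, fell by 0.51 (adjusted p = 0.0188). Anxa2 was at 47.6 and 40.4 CPM in the young and at 19.5 to 31.4 in the older mice. Of the other S100 family genes listed only S100a1 was tested, and it rose by 0.74 (SE 0.14, adjusted p = 0.00716). S100pbp, which codes for an S100P-binding protein and is not a family member, gave -0.07 (adjusted p = 0.88).

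In megakaryocyte-like cells S100a6 rose from 13.4 and 16.1 CPM in the young male and female to 46.0, 36.7, 73.8 and 38.4 in the old male, old female, very old male and very old female, with the middle-aged pair at 27.0 and 23.3 between them. The log2 fold change of older against young was 1.71 (SE 0.17, adjusted p = 7.43e-05, edgeR), and the difference from the HSC-like change was -0.33 (SE 0.14, adjusted p = 0.262). S100a4 rose from 2.97 and 4.23 to between 7.31 and 14.5 in the older mice (log2 fold change 1.48, SE 0.26, adjusted p = 0.00558). S100a10 fell, from 392 and 350 to between 255 and 292 (log2 fold change -0.41, SE 0.09, adjusted p = 0.0149). These 3 of 7 members stood against 3.28% of genes called, and S100a6 was called without any single mouse. Without the young male S100a4 gave 0.86 (adjusted p = 0.296) and S100a10 gave -0.26 (adjusted p = 0.576), and S100a10 also lost its call without the old male (-0.38, adjusted p = 0.0655) and without the very old male (-0.37, adjusted p = 0.0718). In the same cells Vim, Anxa2, Anxa6 and Lgals1 fell as they did in HSC-like cells.

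Marker lists moved with S100a6 in megakaryocyte-like cells as well. Of the HSC list 12 of 19 genes rose and 0 fell, with a summed level of 660 to 712 CPM in young and 841 to 1104 in older mice. Of the megakaryocyte list Pf4, Gp9, Cd9, Vwf, Treml1 and Rab27b rose and 0 genes fell, with 3162 to 4081 in young and 4799 to 6200 in older mice. Of the 17 erythroid genes tested 8 fell (Car1, Ermap, Rhd, Hbb-bt, Hbb-bs, Klf1, Hba-a1 and Hba-a2) and 0 rose, with 1383 to 1435 in young and 1104 to 1301 in older mice. No gene of these 3 lists was at 0. Mpo and Ctsg of the early granulocyte-monocyte list also fell, with overlapping sums of 1355 to 1569 in young and 1075 to 1412 in older mice. The dendritic list summed to 218 to 223 in young and 235 to 262 in older mice, with H2-Aa called higher and Siglech at 0. The lymphoid list (203 to 222 in young and 180 to 191 in older mice, Pax5 at 0, no gene called), the mature neutrophil list (89.4 to 103 and 63.2 to 75.8, Clec4d called lower, Ly6g and Stfa2l1 at 0) and the plasma cell list (67.1 to 78.0 and 52.5 to 65.4, no gene called or at 0) had lower sums in older mice without overlap. Of other lists Fcer1a was called higher, and Cd48 and Pdgfrb were called lower. The part of these lists in the changes of S100a6, S100a4 and S100a10 was not tested.

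In MPP-like cells S100a6 was at 24.8 and 24.04 CPM in the young and at 32.4, 34.5, 66.2 and 51.8 in the pairs of old and of very old mice (log2 fold change 0.90, SE 0.13, adjusted p = 0.00297), 1 of 7 members called against 0.637% of genes. Without the young male the value was 0.79 (adjusted p = 0.182), and old mice alone gave 0.47 (adjusted p = 0.369). Very old against old called S100a6 (0.87, adjusted p = 0.0296) and S100a8 (-2.98, adjusted p = 0.0255) against 0.0838% of genes, a comparison that cannot be told apart from the library series. The S100a6 change in HSC-like cells was larger than that in MPP-like cells by 0.50 (SE 0.13, adjusted p = 0.0273), against 4.38% of genes with such a difference. S100a13 also changed more in HSC-like cells, by 0.38 (adjusted p = 0.0163), and S100a10 differed by -0.33 (adjusted p = 0.0419).

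Markers also moved in MPP-like cells. Of the HSC list 6 of 19 genes rose (Procr, Pdzk1ip1, Vwf, Clec1a, Sult1a1 and Esam) and 0 fell, with sums of 594 to 727 CPM in young and 723 to 1112 in older mice, which just overlapped. Cd9 and Vwf of the megakaryocyte list rose, with sums of 141 to 163 in young and 199 to 218 in older mice and Gp6 at 0. Of the MPP list Notch1 fell, 1 of 10, with overlapping sums of 1979 to 2338 in young and 1684 to 2139 in older mice. Ebf1 and Vpreb1 of 12 lymphoid genes tested fell, with sums of 695 to 745 in young and 393 to 569 in older mice, and Vcam1, C1qc and C1qa of 5 macrophage genes tested fell, with sums of 20.7 to 31.3 in young and 4.71 to 14.6 in older mice. The erythroid list (687 to 718 in young and 593 to 683 in older mice, Rhd and Hba-a1 called lower) and the plasma cell list (84.1 to 107 and 58.3 to 81.3, Sdc1 and Mzb1 called lower) also had lower sums without overlap. Sums of the dendritic (H2-Ab1 and H2-Aa called higher, Ccr9 lower) and basophil lists (Fcer1a called higher) overlapped. The part of these lists in the S100a6 change was not tested.

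The remaining classes had 0 of 7 members called for older against young by edgeR. The background was 0.0842% of genes in monocyte-like, 0.427% in dendritic-like, 0.115% in basophil or mast-like and 0.0079% in erythroid-like cells, and 2, 2, 5 and 1 members in turn had an unadjusted p below 0.05. In dendritic-like cells, where S100a6 was highest, it was at 484 and 520 CPM in the young and at 377 to 570 in the older mice, overlapping, and the HSC-like change was larger by 1.45 (SE 0.19, adjusted p = 2.25e-07, against 1.7% of genes). In monocyte-like cells S100a6 was at 25.4 and 26.9 in the young and at 26.7 to 31.3 in the older mice, and the HSC-like change was larger by 1.24 (SE 0.18, adjusted p = 0.000255, against 3.6%). S100a4 (0.65, adjusted p = 0.0174) and S100a13 (0.45, adjusted p = 0.0489) also changed more in HSC-like than in monocyte-like cells. The differences of S100a6 from basophil or mast-like (0.49, SE 0.30, adjusted p = 0.535, against 2.48%) and erythroid-like cells (0.17, SE 0.24, adjusted p = 0.82, against 1.66%) did not pass, and in the comparison with megakaryocyte-like cells, with 3.42% of genes called, the only member called was S100a13 (0.32, adjusted p = 0.0351). Very old against old erythroid-like cells called S100a9, S100a10 and S100a11 lower, in a comparison that called 19.9% of all genes and cannot be told apart from the library series.

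S100a8 and S100a9 in granulocyte progenitor-like cells differed widely between mice of the same age. S100a8 was at 2579 and 2404 CPM in the young male and female, at 5243 and 467 in the middle-aged, at 4489 and 1637 in the old and at 322 and 1410 in the very old male and female. S100a9 was at 2674 and 1512, at 5177 and 114, at 3616 and 1780 and at 44.3 and 587 in the same order. The older mice thus lay on both sides of the young mice for both genes. Older against young gave log2 fold changes of -0.54 for S100a8 (SE 0.68) and -0.91 for S100a9 (SE 0.95), both with an adjusted p of 0.9997 by edgeR.

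No member was called in granulocyte progenitor-like cells, 0 of 7 by edgeR and 0 by DESeq2, and 1 by edgeR and 0 by DESeq2 had an unadjusted p below 0.05. The background was 0.0092% of genes, a single gene of 10871. With no filter on low counts 2 members, S100a6 and S100a9, were called against 0.258% of 17064 genes. S100a11 was at 354 and 410 in the young and at 412 to 525 in the older mice (log2 fold change 0.29, SE 0.15), and S100a13 was at 127 and 140 against 128 to 153. S100a6 in this class was at 17.0 and 6.72 in the young and at 2.15 to 11.6 in the older mice, overlapping, with a log2 fold change of -1.25 (SE 0.57).

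A small number of cells held much of these molecules. The neutrophil cluster, 48 cells or 0.0812% of all cells, held 38.2% of all S100a8 UMIs and 61.2% of all S100a9 UMIs, and both genes made up 29.8% of all UMIs of these cells. A cell of the cluster had a median of 1378 S100a8 UMIs and 1804 S100a9 UMIs. The young male had 11 such cells, the young female 3, the middle-aged male 13, the old male 12, the old female 8 and the very old female 1, and the middle-aged female and very old male had 0. The c-Kit+, lineage-negative gate removes most mature cells, so that these counts are of cells that passed it.

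Within the neutrophil cluster S100a8 and S100a9 had like shares in the mice. S100a8 took 11.2% to 15.3% and S100a9 15.1% to 18.9% of UMIs in the 5 mice with 3 or more cells, old and young alike. The single cell of the very old female had 18.4% and 19.7%. S100a6 was at 1062 CPM over all cells of the cluster, above its mean in any class, and it varied between mice. It took 0.108% of UMIs in the young male, 0.158% in the young female, 0.19% in the middle-aged male, 0.0366% in the old male, 0.0612% in the old female and 0 in the single cell of the very old female. Taken over all mice this small cluster held 522 of the 696 S100a6 UMIs of the granulocyte class. S100a11 was at 956 and S100a4 at only 6.10.

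Without the neutrophil cluster, a comparison chosen after seeing the data, S100a8 in the remaining 4526 granulocyte cells was at 891 and 1979 in the young, 3009 and 467 in the middle-aged, 2831 and 417 in the old and 322 and 1182 in the very old mice, and S100a9 was at 341, 982, 2177, 114, 1465, 118, 44.3 and 342. Young and older mice still overlapped, and 0 of 7 members were called. The share of all genes called without the cluster was not determined, and with the cluster it was 0.0092%. So few calls over all genes leave the count of members without weight. S100a8 and S100a9 were concentrated in the remaining granulocyte cells too. The 5% of these cells with most S100a8 held 63.2% of its UMIs, and the 5% with most S100a9 held 92.5%. Cells with a UMI of Fcnb, a granule gene of later progenitors, were at 5868 for S100a8 and 3700 for S100a9, and cells without were at 510 and 84.2.

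**Figure D5:**
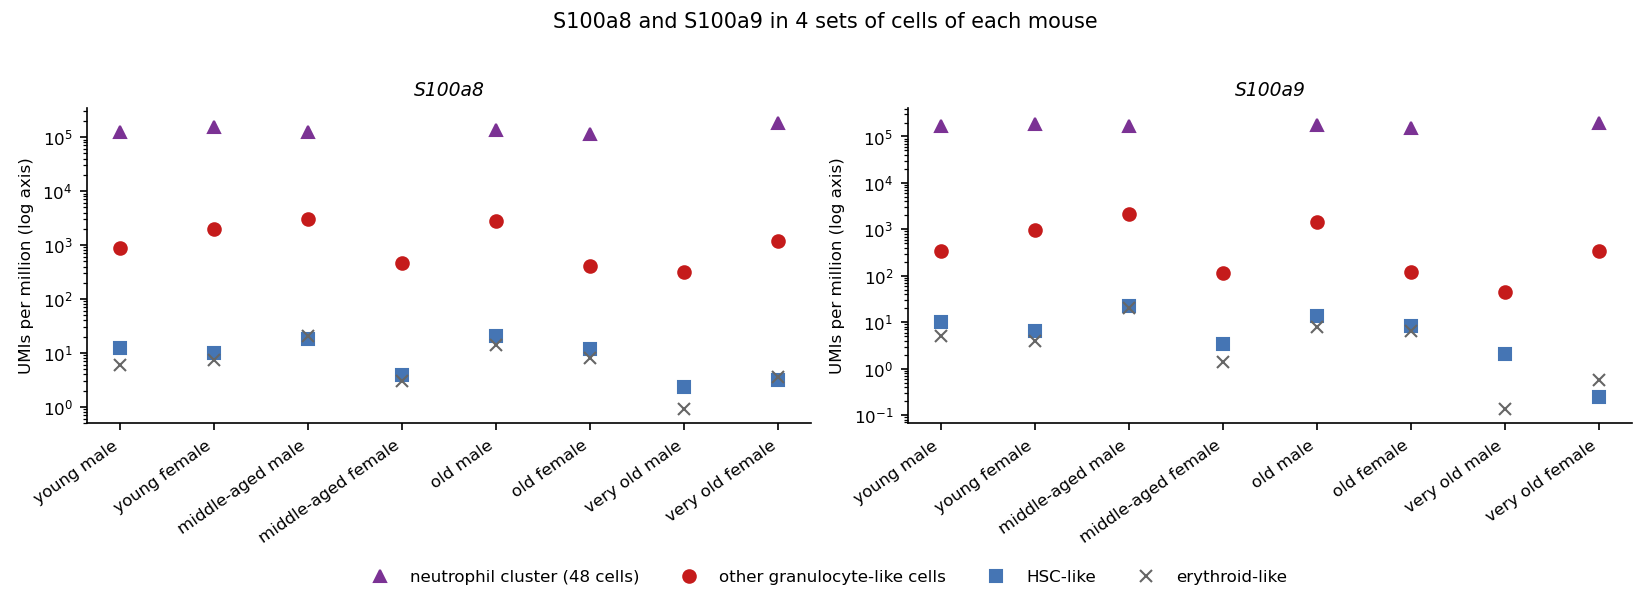
Level of S100a8 (left) and S100a9 (right) in CPM on a log axis, for each of the 8 mice, in the neutrophil cluster (48 cells in 6 mice), the other granulocyte-like cells, HSC-like and erythroid-like cells. The neutrophil cluster lies between 111553 and 197030 in the mice that have it, the other granulocyte-like cells lie between 44.3 and 3009, and HSC-like and erythroid-like cells lie at 22.6 or below and follow each other from mouse to mouse.

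The ratio of S100a8 to S100a9 UMIs was lower in the neutrophil cluster than in the other granulocyte cells. It was 0.76 in the neutrophil cluster and lay between 0.73 and 0.81 in the 5 mice with 3 or more of its cells. In the other granulocyte cells it was 1.98 over all mice, from 1.38 in the middle-aged male to 7.25 in the very old male. With 0.93 in the single cell of the very old female, the values of the cluster and of the other granulocyte cells did not overlap.

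The low counts of S100a8 and S100a9 outside the granulocyte class moved with the library. In erythroid-like cells S100a8 was highest in the middle-aged male (20.3 CPM) and the old male (14.0) and lowest in the very old male (0.918). In HSC-like cells it was at 18.5, 20.3 and 2.37 in the same mice. These were also the libraries with the highest (426 and 505) and lowest (15.8) S100a8 level over all cells. An erythroid-like cluster of 564 cells, with 662 of the 2038 erythroid-like S100a8 UMIs, did not follow the library. It was at 38.0 CPM in the very old female (141 S100a8 UMIs and 1 S100a9 UMI) and at 5.37 in the middle-aged male. The 70 macrophage-like cells of the young male were at 156. The expected share of cells with an S100a8 UMI was taken at 4000 UMIs per cell. It was 0.987% to 7.44% in HSC-like and 0.285% to 6.43% in erythroid-like cells, with medians of 8074 and 15273 UMIs per cell before thinning. Shallower cells were left out, 431 of 4457 HSC-like and 5223 of 16359 erythroid-like cells. The share was higher in HSC-like than in erythroid-like cells in all 8 mice, and both moved with the library. The lower S100a8 and S100a9 called in very old HSC-like cells lie at these low levels, and the part of free RNA in those calls was not tested.

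S100a6 in HSC-like cells and S100a8 and S100a9 in granulocyte progenitor-like cells thus differed in how they varied. For S100a6 in HSC-like cells all 4 older mice exceeded the young pair, and for S100a8 and S100a9 the older mice spread from below to above the young mice. The change of S100a6 in HSC-like cells exceeded its change in granulocyte progenitor-like cells by 2.73 (SE 0.46, adjusted p = 0.00397, against 1.01% of genes). Without the neutrophil cluster it was 1.09 (SE 0.32, adjusted p = 0.133), and without the old male it was 2.15 (adjusted p = 0.0648). S100a6 in the granulocyte cells outside the cluster was at 2.77 CPM over all mice, from 174 molecules in all.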

How the data were processed

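Count tables of 8 libraries, 1 per mouse, were used as the authors deposited them. Their values are counts of UMIs per gene and cell, made with Cell Ranger on the mm10 genome (version 6.0.0 in the file headers). Cells with at least 200 genes were kept. Levels were log-normalized, 2000 variable genes without S100 and sex-linked genes were reduced to 30 principal components, libraries were aligned with a Harmony procedure, and 25 clusters were found by Leiden at resolution 0.8 (leidenalg 0.10.2, Python 3.11.15). Names were given to clusters with 3 or more markers of a class in the 50 genes highest by fold, unless another class outnumbered it in the top 10, or its cells had a median UMI count under 33.3% of that of their library and none of the markers stood in the top 10 (a cluster of 1258 cells with 6 erythroid markers), and 11991 cells stayed unnamed. Doublets (3545 cells, 5.99%, Scrublet in scanpy 1.11.5) were removed in an alternative only.

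UMIs were summed per class and mouse. edgeR 4.0.16 (R 4.3.3) fitted quasi-likelihood models with TMM scaling, its filter on low counts, age group and sex, and p-values were adjusted by Benjamini-Hochberg over all genes tested with a threshold of 0.05. Differences between classes were tested in a joint fit with the mouse as a block, and variance with limma 3.58.1. Genes alike to a member were named as the 3 with the highest Pearson r, and other genes by lists. Members, marker lists and partner lists were chosen with earlier results of these data known. On simulated counts for older against young HSC-like cells (11394 genes) 79.8% of 2-fold and 31.0% of 1.4-fold changes were found with 5 false calls, and for granulocyte progenitor-like cells (10685 genes) 72.2% and 16.2% with 2 false calls. The simulated spread between mice followed the trend over all genes and not the spread of each gene. These shares therefore do not apply to S100a8 and S100a9 in granulocyte progenitor-like cells, which varied widely between mice of the same age. The variance test found 35.5% of 200 planted changes with 8 false calls over 4634 genes. Alternatives were DESeq2 1.42.0, other filters, cell sets and ages, and leaving out each mouse. The result of a single marker gene is not reported here.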

Additional observations from a re-analysis of the deposited data

Results flagged for a closer look

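In HSC-like cells the very old male was set apart from the other 3 older mice for S100a6, with a gap of 0.939 of the group's range, and for S100a13, with a gap of 0.947, both above Dixon's critical value for 4 samples. These were 2 of 14 groups examined, and chance sets a sample apart in about 1 of 20 groups.

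Of 49 differences between HSC-like and other cells in the change from young to older mice 9 passed the test. S100a6 changed more in HSC-like than in granulocyte progenitor-like cells by 2.73, than in dendritic-like cells by 1.45, than in monocyte-like cells by 1.24 and than in MPP-like cells by 0.50, all on the log2 scale. The first of these lost its call without the neutrophil cluster of 48 cells, which held 522 of the 696 S100a6 UMIs of the granulocyte class (1.09, adjusted p = 0.133, edgeR), and without the old male (2.15, adjusted p = 0.0648). S100a13 changed more in HSC-like than in monocyte-like cells by 0.45, than in MPP-like cells by 0.38 and than in megakaryocyte-like cells by 0.32. S100a4 changed more in HSC-like than in monocyte-like cells by 0.65, and S100a10 differed between HSC-like and MPP-like cells by -0.33.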

How the results depend on the processing

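S100a6 in HSC-like cells was higher in older mice under all 20 alternatives, from 0.92 to 1.67 on the log2 scale, and missed the threshold only without the young male (1.11, adjusted p = 0.0522, edgeR). Leaving out each mouse in turn gave 1.11 to 1.67 and 0 to 4 called members. With the 95-week mice only 6 members were called, against 5.78% of genes. With cells matched on HSC minus MPP markers, chosen after seeing the data, 1 was called, and the share of all genes called there was not determined. In granulocyte progenitor-like cells S100a8 gave 0.17 with the 78- and 79-week mice only and -2.11 to 0.17 without single mice, reversed without the young female at 0.17. S100a9 gave 0.37 with the 78- and 79-week mice only, -3.30 to -0.26 without single mice, and -0.91 with an adjusted p of 7.88e-05 without a filter on low counts, when 2 members were called. The S100a6 difference between HSC-like and granulocyte progenitor-like cells was 1.09 without the neutrophil cluster, chosen after seeing the data, and 2.15 to 3.30 without single mice. The cause of these changes was not tested. The S100a6 variance kept its direction and side of the threshold in 12 alternatives, with log2 differences from 0.11 to 0.35. With 2 young mice each young library carries much of every contrast. Sex was a term of the fit, so that the male and the female of each age group were compared across ages within sex. The labels give no other pairing of mice between age groups.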
